A study of Mus musculus with 3 samples.

Results

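Rab GTPases are small GTP-binding proteins that mark the membranes of a cell and direct its vesicle traffic. The members described here are the mouse genes whose symbol is Rab followed by a number, with or without a letter, and that have at least 1 protein-coding transcript in the GENCODE M21 annotation. The rule gave 59 of the 55536 genes in the gene tables. It uses the symbol and the transcript type alone, so no measured value chose a member.

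Total RNA was sequenced from monocytes of the peripheral blood of C57BL/6J mice, which were adults aged 5 to 6 weeks. There was 1 group of 3 libraries, each made with a ScriptSeq kit from 100 ng of RNA depleted of ribosomal RNA. Their recorded size ranges differed, at 200 to 594, 200 to 491 and 200 to 1000 bp for libraries 1, 2 and 3. The part of this difference in the values below was not tested. No treatment, genotype or transgene was recorded, and the design holds no contrast. The labels number the libraries as biological replicates 1, 2 and 3, yet all carry 1 donor record, and sex was not collected. The p-values therefore measure the spread among these 3 libraries, which may be technical.

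A Rab protein switches between a GTP-bound form, which recruits effector proteins to a membrane, and a GDP-bound form, which a GDP dissociation inhibitor holds in the cytosol. Exchange factors turn the switch on, and GTPase-activating proteins turn it off. Most members are anchored in the membrane by lipid groups attached to cysteines near the very end of the protein. In monocytes and macrophages, Rab proteins are best known for the maturation of phagosomes, the recycling of receptors, and the secretion of cytokines and granule contents.

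The cysteine anchor can be read from the coding sequences. Of 155 protein-coding transcripts of the members, 127 had a complete coding sequence, and 113 of these, or 89%, carried a cysteine codon (TGT or TGC) among the last 5 codons. Across all complete coding sequences of protein-coding genes outside the mitochondrial genome, 5483 of 44351, or 12.4%, did so. The last 10 codons before the stop codon are printed here, 5′ to 3′ from the GENCODE M21 transcripts (mm10), with the cysteine codons in capitals. The transcripts were chosen to show the main forms of the end among members with high levels, and 1 abundant transcript that lacks it.
Rab5a-201: cagccagccagaagccagTGTTGTagtaac
Rab1a-201: ccagtcaagcagtcaggtggaggcTGCTGC
Rab10-201: ggcgtgacgggctggaagagcaagTGCTGC
Rab7-201: gccaaggcctccgcagaaagcTGCagtTGT
Rab27a-201: gaggagaaggagaaggggttgTGTggcTGT
Rab8a-201: aggaccagcttcttccggTGCagtctcctg
Rab8b-201: aagaccagtttcttccgcTGTtctctgctt
Rab11a-208: aagccaaaggtgcagTGCTGTcagaacatc
Rab11a-206: gagaagaatgaagcaaatgtcagacagacg
Rab1a and Rab10 ended on adjacent cysteine codons, and in Rab5a other codons followed the pair. In Rab7 and Rab27a a single codon stood between the cysteines, and Rab8a and Rab8b had 1 cysteine codon each. Rab11a-206, which M21 lists as protein coding, had 0 cysteine codons in this window and 153 codons in all, against 216 codons for Rab11a-208.

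Most of the TPM of Rab8a, the highest member, was assigned to a transcript with a retained intron. Its transcripts Rab8a-201 and Rab8a-202 share exon 5, which ends at position 72175929 of chromosome 8 (mm10, plus strand). Rab8a-202 then runs on into intron 5, and Rab8a-201 is spliced to exon 6. The sequences around that point are printed because both transcripts part there. Lower case marks the last 30 bases of exon 5, and capitals mark the 30 bases that follow in each transcript.
Rab8a-202: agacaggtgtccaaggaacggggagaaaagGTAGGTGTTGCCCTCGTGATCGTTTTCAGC
Rab8a-201: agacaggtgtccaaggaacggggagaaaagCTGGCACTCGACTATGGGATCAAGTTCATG
The stretch printed for Rab8a-202 is chr8:72175900-72175959, and the retained part of intron 5 covers 128 bases, chr8:72175930-72176057.

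The depth was 27.2, 26.5 and 19.9 M expected counts in libraries 1, 2 and 3, and for a transcript of 1000 bases 1 TPM, a relative abundance per transcript length, stood for 112, 121 and 76.0 counts. Protein-coding genes held 10.9%, 9.84% and 10.7% of all TPM, so a value of 1 TPM would become 9.16, 10.2 and 9.34 TPM if protein-coding genes alone were scaled to the total. Of 12 monocyte markers, at least 11 reached 1 TPM in each library, and their summed TPM was 2494, 2089 and 1508. Lyz2, the lysozyme of myeloid cells, stood at 1448, 1238 and 718 TPM and was lowest in library 3. Csf1r, the receptor for the monocyte growth factor, stood at 69.8, 52.4 and 86.6 TPM and was highest there. Markers of other blood cells were present, and library 3 stood apart in them. All 9 natural killer (NK) cell markers reached 1 TPM in every library, and their summed TPM was 677, 573 and 1672. Of 8 platelet markers, 4, 4 and 7 reached it, with sums of 15.4, 11.2 and 98.3 TPM. By contrast, 8 red cell markers summed to 3535, 3328 and 263 TPM (7, 6 and 5 of them at 1 TPM or more), with the red cell factor Klf1 at 0 throughout. The 7 neutrophil markers summed to 141, 126 and 9.44 TPM (5, 4 and 1 of them at 1 TPM), with Ly6g, the defining surface marker, at 0. Most of that sum was Retnlg, at 124, 114 and 0 TPM, and Csf3r went the other way, at 5.99, 6.64 and 8.09 TPM. The 8 basophil, eosinophil and mast cell markers summed to 28.4, 31.5 and 4.71 TPM (6, 6 and 1 of them at 1 TPM), with the eosinophil gene Epx at 0. B cell markers summed to 35.2, 37.3 and 30.8 TPM, and T cell markers to 3.43, 3.48 and 6.57 TPM. In such bulk samples, fewer cells of a type and less RNA per cell cannot be told apart.

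Most Rab genes were present in the monocyte libraries, and a small set carried most of the signal. Each gene was set against a level of 1 TPM with edgeR's quasi-likelihood test, adjusted by Benjamini-Hochberg over all 17678 genes tested, with a threshold of 0.05. Of the 59 members, 47 had the summed count of 10 that the test required. Of these, 33 stood above 1 TPM, 1 below, and 13 did not pass in either direction. Not passing does not place a gene near 1 TPM. Among the 13, Rab4a, Rab33a and Rab39b had means of 0.0767, 0.0467 and 0.02 TPM and rest on few counts. Among protein-coding genes, 54% of those tested stood above 1 TPM and 6.02% below. The counts of each role group and regulator class below are to be read beside these shares, and none was tested against them. The median fitted log2 level against 1 TPM was 2.11 over the members tested and 1.06 over the protein-coding genes tested. Both the share and the median of the members lay above those of protein-coding genes, a description for which no test was made.

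The members together held 375, 333 and 358 TPM, which was 0.344%, 0.338% and 0.334% of the TPM of protein-coding genes. The 12 members with the highest means took 70.5%, 69.2% and 69.1% of the family's TPM. In all, 11 members had a mean of 10 TPM or more, 25 lay between 1 and 10 TPM, and 23 lay under 1 TPM. The family's sum varied little between libraries, and protein-coding transcripts held 74.5%, 75.8% and 70.1% of it.

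**Figure D1:**
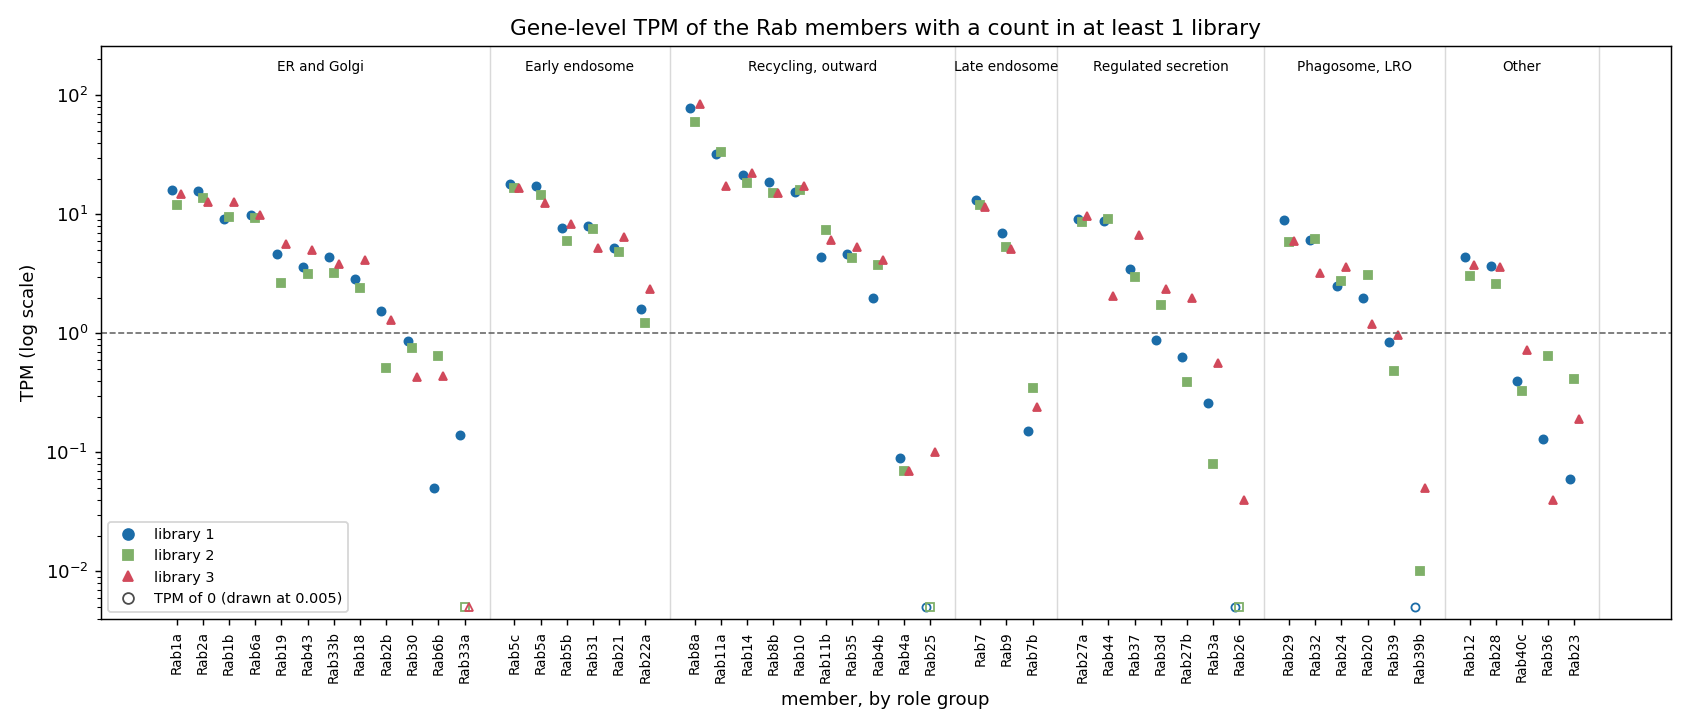
TPM (log scale) of every member with a count in at least 1 library, grouped by role, with 1 symbol per library and the dashed line at 1 TPM; open symbols are values of 0 drawn at 0.005. Rab8a is the highest member at 77.6, 60.0 and 84.4 TPM, and all 6 early endosome members lie above the line in every library.

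The recycling and outward transport group, which returns receptors to the surface and carries new membrane there, had 13 members, of which 8 of 9 tested stood above 1 TPM. It held the largest summed mean level of any role group, 169 TPM, or 93.1 TPM in protein-coding transcripts alone. Rab8a (chr8:72161200-72183904, plus strand), which acts in outward transport and on macrophage membranes, was at 77.6, 60.0 and 84.4 TPM. Its mean was 74.0 ± 12.6 TPM (SD, n = 3), a log2 level of 6.21 against 1 TPM with an adjusted p of 1.12e-13 (edgeR). Library 2 was the lowest, and the range did not overlap that of any other member.

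Rab11a (chr9:64715299-64737758, minus strand), the defining Rab of the recycling endosome, was at 32.3, 33.4 and 17.4 TPM. The mean of 27.7 ± 8.94 TPM (SD, n = 3) had an adjusted p of 7.84e-11 against 1 TPM (edgeR), and library 3 lay well under the others. Its relative Rab11b was at 4.35, 7.38 and 6.10 TPM. Rab14, which links the Golgi and early endosomes, was at 21.3, 18.3 and 22.1 TPM with a mean of 20.6 ± 2.01 TPM. Rab8b was at 18.8, 15.0 and 15.1 TPM. Rab10, which carries membrane and receptors to the cell surface, was at 15.4, 16.0 and 17.4 TPM. The last 2 overlapped, and both lay under Rab14 in every library.

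Among the weaker recycling members, Rab35, which acts in recycling from the plasma membrane, was at 4.63, 4.33 and 5.30 TPM. Rab4b was at 1.99, 3.77 and 4.13 TPM. Rab4a, the other fast-recycling Rab of that pair, was at 0.09, 0.07 and 0.07 TPM and did not pass the test (adjusted p = 0.164, edgeR). Rab25, known from epithelial cells, had 5 counts in library 3 of the gene tables and none in the others. Rab13, Rab15 and Rab17, of which the first and last are best known from epithelia, had no count in the gene tables. By counting error alone, at 3 counts, this allows at most 0.0434, 0.0459 and 0.0424 TPM in library 3, the shallowest. The TPM intervals deposited with the gene values reach 0.103, 0.346 and 0.185 TPM in that library.

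All 6 early endosome members stood above 1 TPM. Rab5 proteins govern the fusion of early endosomes, and their 3 genes were all well represented. Rab5c was at 18, 16.5 and 16.8 TPM, with a mean of 17.1 ± 0.771 TPM (SD, n = 3). Rab5a was at 17.4, 14.5 and 12.4 TPM. Rab5b was at 7.63, 6.01 and 8.35 TPM. Rab5b was thus the lowest of the 3 in every library, with a range apart from those of the others. Of the remaining members, Rab31, a relative of Rab22a, was at 7.96, 7.54 and 5.26 TPM. Rab21, known for integrin traffic, was at 5.20, 4.79 and 6.43 TPM. Rab22a was at 1.60, 1.23 and 2.38 TPM, and its adjusted p of 0.0112 (edgeR) became 0.0521 without library 1 and 0.0575 without library 3.

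The group that works between the endoplasmic reticulum and the Golgi or within the Golgi had 12 members, of which 8 stood above 1 TPM and 4 did not pass. Rab1a, needed for the first transport step out of the endoplasmic reticulum, was at 16.1, 12.0 and 14.8 TPM. Its close relative Rab1b was at 9.16, 9.48 and 12.6 TPM. Rab1a was the higher of this pair in each library, although their ranges overlapped. Rab2a, which acts on the way to the Golgi, was at 15.6, 13.6 and 12.7 TPM. Rab6a, the main Rab of the Golgi, was at 9.96, 9.36 and 9.80 TPM. These 4 genes led the group in every library. Rab33b, a Golgi member also linked to autophagy, was at 4.37, 3.21 and 3.79 TPM, and Rab19, Rab43 and Rab18 had means between 3.13 and 4.32 TPM.

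The 4 members of this group that did not pass were Rab2b, Rab30, Rab6b and Rab33a. Rab2b was at 1.55, 0.51 and 1.29 TPM. Rab6b, known from neurons, was at 0.05, 0.65 and 0.44 TPM. Rab33a had counts in library 1 alone (0.14 TPM). In each of these 3 cases a close relative, Rab2a, Rab6a or Rab33b, stood far higher in every library.

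Late endosomes and lysosomes were represented by Rab7, which drives the fusion of late endosomes and phagosomes with lysosomes, at 13.2, 11.9 and 11.6 TPM. The mean was 12.2 ± 0.845 TPM (SD, n = 3), with an adjusted p of 6.67e-10 against 1 TPM (edgeR). Rab9, which acts in transport from late endosomes to the Golgi, was at 6.99, 5.28 and 5.07 TPM, and its relative Rab9b had no count in the gene tables. Rab7b, despite its name a separate gene on chromosome 1, was at 0.15, 0.35 and 0.24 TPM. It was the sole member below 1 TPM by edgeR, with an adjusted p of 0.0308. That call is weak: it was 0.0537 with the dispersion trend fitted on the level instead of the count, 0.145 without library 1, 0.0576 without library 2 and 0.466 with DESeq2. On the protein-coding scale the gene lay above 1 TPM, with a log2 level of 1.24.

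Regulated secretion, the release of stored granules, had 9 members. Of 6 tested, 3 stood above 1 TPM, beside 54% of protein-coding genes. Rab27a, which docks secretory granules and lysosome-related organelles at the plasma membrane, was at 9.12, 8.68 and 9.63 TPM with a mean of 9.14 ± 0.475 TPM (SD, n = 3). Rab44 (chr17:29114145-29148980, plus strand), a large atypical member known from mast cells, was at 8.74, 9.22 and 2.05 TPM. Rab37, found on secretory granules, was at 3.49, 2.97 and 6.68 TPM. Rab27a thus varied within a narrow range, whereas Rab44 was lowest and Rab37 highest in library 3.

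The remaining secretory members were low. Rab3d, found on granules of many secretory cells, was at 0.88, 1.73 and 2.34 TPM and missed the threshold with an adjusted p of 0.057 (edgeR), which became 0.0266 without library 1, 0.0375 with TMM factors, 0.0299 without the filter on low counts and 0.0497 with the M4 tables. Rab27b was at 0.63, 0.39 and 2.00 TPM. Rab3a, the synaptic vesicle Rab, was at 0.26, 0.08 and 0.56 TPM. All 3 had their highest value in library 3. In the gene tables Rab26 had 3 counts in library 3 and none elsewhere. Rab3b and Rab3c, best known from neurons and endocrine cells, had no count in the gene tables.

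The group of phagosome, lysosome-related organelle and autophagy members had 9 in all. Of 6 tested, 4 stood above 1 TPM, beside 54% of protein-coding genes. Rab29, which recruits the kinase Lrrk2 to membranes, was at 8.88, 5.82 and 5.99 TPM. Rab32, which serves lysosome-related organelles and phagosomes, was at 6.06, 6.25 and 3.23 TPM. Its partner in melanosome formation, Rab38, had no count in the gene tables. Rab24, linked to autophagy, was at 2.48, 2.76 and 3.59 TPM. Rab20, an interferon-responsive Rab of phagosomes, was at 1.98, 3.09 and 1.21 TPM, and its adjusted p of 0.0137 (edgeR) became 0.0506 without library 1 and 0.218 without library 2. Rab39 was at 0.85, 0.48 and 0.97 TPM and did not pass. Its relative Rab39b was at 0, 0.01 and 0.05 TPM, and Rab34 and Rab42 had no count in the gene tables.

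In the group of other or less settled members, Rab12 was at 4.34, 3.01 and 3.72 TPM. Rab28, known from photoreceptors, was at 3.65, 2.59 and 3.59 TPM. Both stood above 1 TPM. Rab40c was at 0.40, 0.33 and 0.73 TPM. Rab36 and Rab23 had means of 0.273 and 0.22 TPM, and none of these 3 passed the test. Rab40b had no count in the gene tables. In all, 10 members had no count in any library of the gene tables and 4 (Rab33a, Rab25, Rab39b and Rab26) had none in some library.

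In the order of means, few neighbours were separated. Among the 13 highest members, only Rab8a against Rab11a and Rab14 against Rab5c had ranges that did not overlap. From Rab5c to Rab2a, with means from 17.1 to 13.9 TPM, each neighbour overlapped the next, although the range of Rab5c lay wholly above those of Rab1a and Rab2a. When protein-coding transcripts alone were summed, no pair of neighbours among the 13 highest was separated. Rab11a then came first with 27.1, 29.5 and 15.3 TPM, and Rab8a had rank 5. In libraries 1 and 2, most of that Rab11a value was the 462-base Rab11a-206, at 18.7, 23.5 and 4.83 TPM in libraries 1, 2 and 3.

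**Figure D2:**
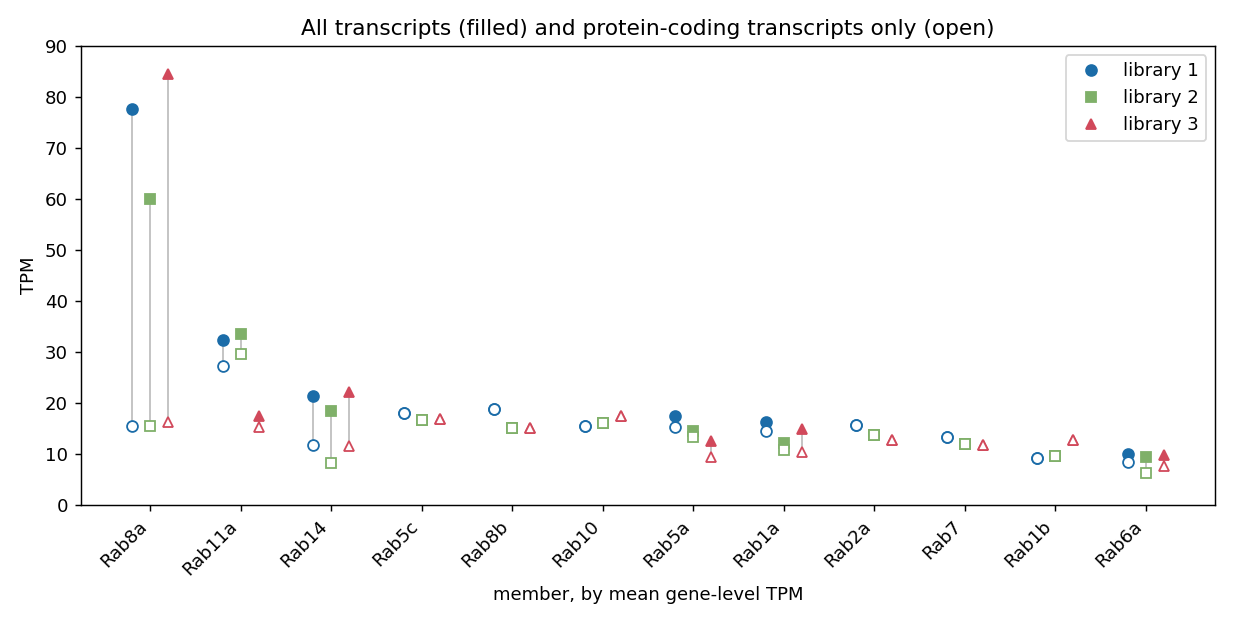
TPM of the 12 highest members over all transcripts (filled) and over protein-coding transcripts only (open), with 1 symbol and colour per library and a line joining both values. Rab8a drops from 77.6, 60.0 and 84.4 TPM to 15.5, 15.4 and 16.1 TPM, inside the range of its neighbours.

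The 542-base Rab8a-202, which M21 lists as a retained-intron transcript, was estimated at 62.1, 44.6 and 68.4 TPM in the M21 transcript table. The coding Rab8a-201, of 4550 bases and 8 exons, was estimated at 15.5, 15.4 and 16.1 TPM in the same table. By counts the order was the other way: Rab8a-201 had 7634, 8204 and 5328 expected counts and Rab8a-202 had 2557, 2058 and 1849.5. TPM divides by the length of a transcript, so 1 count weighs more in the shorter one. In the separate table made from the reads, Rab8a-202 took 84.8%, 80.2% and 84.7% of the gene's TPM, and Rab8a-201 took 68.0%, 73.3% and 68.9% of its counts. The source of the reads assigned to Rab8a-202 was not tested.

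**Figure D3:**
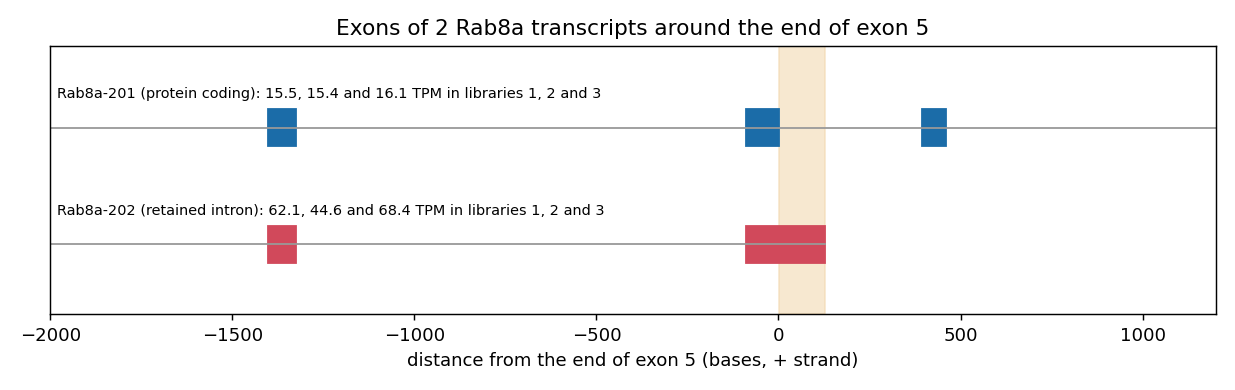
Exons of Rab8a-201 (protein coding, 15.5, 15.4 and 16.1 TPM) and Rab8a-202 (retained intron, 62.1, 44.6 and 68.4 TPM) by distance in bases from the end of exon 5. The shaded stretch is the 128 bases of intron 5 that only Rab8a-202 holds, and both transcripts share the exons to its left.

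Across the members tested, 45 had counts in all 3 libraries and so a share for every transcript. In the table made from the reads, a protein-coding transcript led in TPM for 38 of the 45, and the median share of TPM in protein-coding transcripts was 84.1%. Counted by estimated reads, a coding transcript led for 42. These counts and shares, and those that follow, were not computed over all genes, so whether other genes differ was not tested. Under 50% of TPM in protein-coding transcripts was found for Rab8a, Rab14, Rab29, Rab4b, Rab40c and Rab23. Of these, Rab8a, Rab4b, Rab40c and Rab23 were also under 50% on average over the libraries in both other transcript tables, where Rab4b reached 52% in library 2, and Rab23 had no value in any protein-coding transcript.

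Rab14 spread over many transcripts. Its coding share was 42.2%, 36.0% and 44.9% of TPM in the table made from the reads, and the leading coding transcript, Rab14-201, was at 9.35, 5.63 and 10.1 TPM there. Library 2 was the lowest in both. In Rab4b the coding share was 19.6%, 20.7% and 19.0% in that table, but 42.2%, 52% and 36% in the M21 transcript table. Of its exon bases, 65% also lie in the gene model Gm21983 on the same strand, and their division between the genes may differ by method.

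Rab11a was divided between a short and a long coding transcript. The 462-base Rab11a-206, whose coding end lacks the cysteine codons shown above, was at 18.7, 23.5 and 4.83 TPM in the M21 transcript table. The 2336-base Rab11a-208, with the cysteine end, was at 7.48, 5.96 and 4.68 TPM. The gene's lower TPM in library 3 thus lay mainly in Rab11a-206, and Rab11a-208 differed less. By counts the order was the other way: Rab11a-208 had 1816, 1572 and 765 expected counts and Rab11a-206 had 603, 857 and 101. As for Rab8a, 1 count weighs more in the shorter transcript. The recorded size range was widest in library 3 (200 to 1000 bp), and its part was not tested. A further coding transcript, Rab11a-201, whose coding sequence is incomplete in M21, was at 0, 0 and 5.12 TPM in that transcript table. In the table made from the reads it was at 13.4, 10.4 and 19.3 TPM, present in every library and highest in library 3. Rab11a-206 was lowest in library 3 there too, at 24.9, 28.1 and 7.79 TPM. The tables thus divided the gene differently, and the cause was not tested.

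Many Rab genes come in closely related pairs, and 20 such pairs were compared within each library as the difference of log2(TPM + 0.1). Some genes stood in more than 1 pair, and the order within a pair was set with earlier results of these data known. In each pair the same gene was higher in all 3 libraries, the first as listed in 16 pairs and the second in 4. These counts depend on the listed order and carry no meaning of their own. With 3 libraries an exact sign-flip test cannot give a p below 0.25, so the ratios are descriptions. Rab7 exceeded Rab7b by 5.19 ± 0.50 (log2 ratio, mean and SD, n = 3). Rab6a exceeded Rab6b by 4.64 ± 1.27, and Rab2a exceeded Rab2b by 3.65 ± 0.73. In these pairs most of the signal lay in 1 gene. No size is given for the pairs of Rab25, Rab33a and Rab39b, which had no count in some library, since the added 0.1 sets it. Rab27a exceeded Rab27b by 3.34 ± 1.01, from 4.16 in library 2 down to 2.21 in library 3. In the Rab4 pair the b gene led, with a log2 ratio of Rab4a to Rab4b of -4.20 ± 0.65.

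Other relatives were close. Rab5a and Rab5c differed by -0.22 ± 0.20, and Rab1a exceeded Rab1b by 0.45 ± 0.31 over all transcripts and by 0.18 ± 0.47 in coding transcripts, where library 3 had the opposite sign. Rab5c exceeded Rab5b by 1.22 ± 0.22, Rab11a exceeded Rab11b by 2.17 ± 0.68 and Rab3d exceeded Rab3a by 2.23 ± 0.99. Rab22a lay below Rab31, with a log2 ratio of -1.96 ± 0.75. Where the partner had no count in the gene tables, 3 counts were taken as its limit, which covers counting error only. On that limit, in the library with the smallest bound, Rab32 was at least 73.0-fold higher than Rab38. Over all transcripts, Rab40c was at least 7.93-fold higher than Rab40b. The protein-coding transcripts of Rab40c were at 0, 0 and 0.08 TPM in libraries 1, 2 and 3 of the M21 transcript table. No bound is given for them. The TPM intervals deposited with the gene values reach higher, to 0.274, 0.24 and 0.431 TPM for Rab40b in libraries 1, 2 and 3. Rab40c was at 0.40, 0.33 and 0.73 TPM. For Rab38 they reach 0.0721, 0.0647 and 0.109 TPM, beside 6.06, 6.25 and 3.23 TPM for Rab32.

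The Rab8 pair depended on which transcripts were summed. Over all transcripts Rab8a exceeded Rab8b by 2.17 ± 0.27 (log2 ratio, n = 3), and over protein-coding transcripts the ratio was -0.05 ± 0.20. Rab10, of the same subfamily, had a log2 ratio to Rab8a of -2.17 ± 0.23 over all transcripts and of 0.05 ± 0.07 in coding transcripts. The coding-only comparison was added after the Rab8a transcripts had been seen. Rab8b shares 279 bases at 100% identity with Gm20689 (mean 17.2 TPM), so reads in that stretch could be divided between them.

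**Figure D4:**
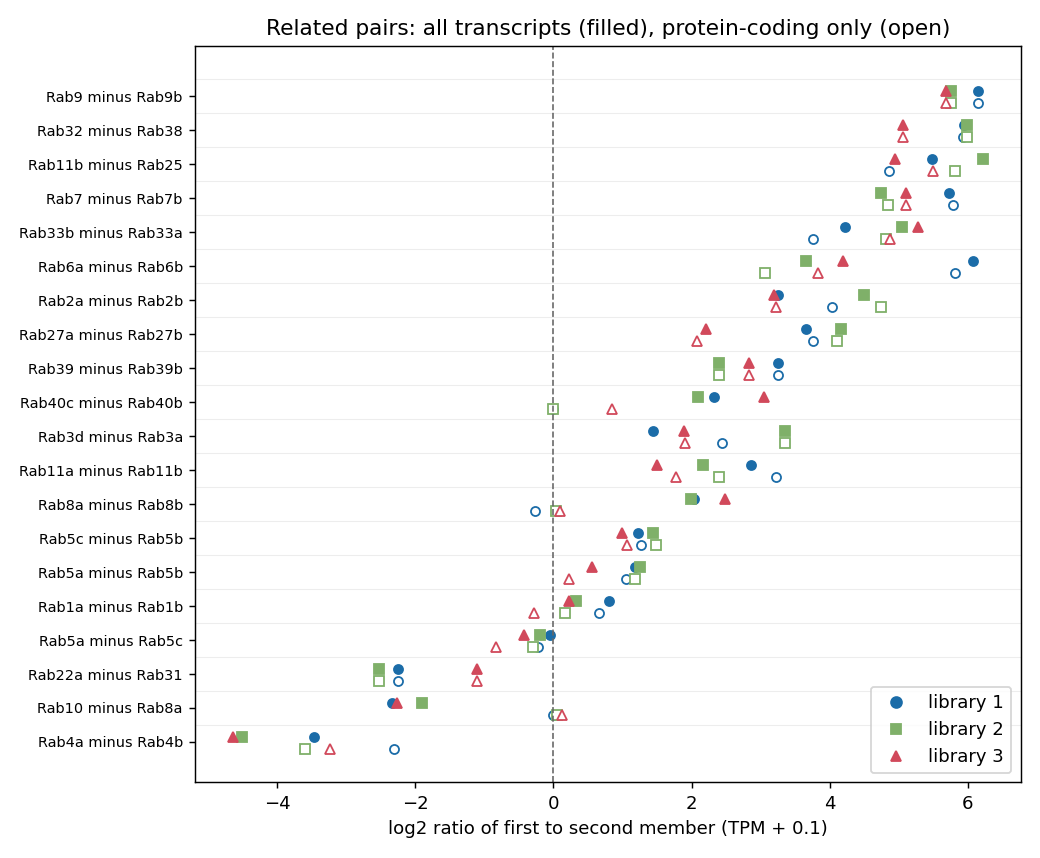
Log2 ratio of the first to the second member of 20 related pairs, TPM + 0.1, with filled symbols for all transcripts and open symbols for protein-coding transcripts, 1 symbol per library, and the dashed line at a ratio of 1; where a gene had no count, the added 0.1 sets the plotted ratio. Filled symbols lie on the right of the line in 16 pairs, a side that depends on the order listed within each pair. The open symbols of Rab8a minus Rab8b and of Rab10 minus Rab8a lie at the line.

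Library 3 was compared with the others, and library 2 with library 1, for the 36 members with a mean of 1 TPM or more. Differences of log2(TPM + 0.1) were centred on the median protein-coding gene, which had shifted by 0.21 between libraries 3 and 1, 0.37 between 3 and 2, and -0.16 between 2 and 1. With 1 library against 1 library there is no test, and a difference past 2-fold describes these libraries. Between libraries 3 and 1, 2 members were past 2-fold higher in library 3 (Rab3d and Rab27b), beside 6.96% of protein-coding genes, and 3 were lower (Rab11a, Rab44 and Rab32), beside 5.36%. Without centring, these counts were 3 and 1. Between libraries 3 and 2, 1 was higher (Rab27b), beside 6.94%, and 4 were lower (the same 3 and Rab20), beside 5.53%, and without centring 4 and 2. Between libraries 2 and 1, 2 were higher (Rab4b and Rab3d), beside 3.18%, and 1 was lower (Rab2b), beside 3.23%, and without centring 0 and 1. The centred counts are 1 to 4 among 36 members, and no test was made of their difference from the backgrounds. No background was computed for the counts without centring.

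Rab44 had the largest difference of any member at this level. Its 2.05 TPM in library 3 lay under the 8.74 and 9.22 TPM of libraries 1 and 2, centred differences of -2.25 and -2.49 (log2). The retained-intron transcript Rab44-205 was at 3.82, 5.63 and 0.89 TPM and the coding Rab44-206, with 973 codons, at 3.51, 2.65 and 0.63 TPM, so both were lowest in library 3 in the M21 transcript table. In the table made from the reads Rab44-206 was also lowest in library 3, at 7.05, 5.26 and 1.24 TPM, whereas Rab44-205 was lowest in library 1, at 0.471, 3.39 and 0.923 TPM. In the M4 transcript table the coding Rab44-201 was at 4.55, 4.16 and 0.94 TPM and held 48.7% of the gene's TPM in library 3, where the noncoding Rab44-202 was at 0.99 TPM. The summed markers of neutrophils (141, 126 and 9.44 TPM) and of basophils, eosinophils and mast cells (28.4, 31.5 and 4.71 TPM) were low in the same library, the former mostly through Retnlg. The monocyte marker sum (2494, 2089 and 1508 TPM) was lowest there too, mostly through Lyz2 (1448, 1238 and 718 TPM) and Ctss (497, 369 and 234 TPM). The monocyte markers Csf1r, Ccr2, Itgam, Fcgr1, Tyrobp and Cd14 were instead highest in library 3. The part of these cells in the result was not tested.

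Rab11a and Rab32 were each lower in library 3 of the gene tables. Centred differences against libraries 1 and 2 were -1.10 and -1.31 for Rab11a and -1.10 and -1.30 for Rab32. For Rab11a, the table made from the reads divided the transcripts differently, as given above. Rab20 had differences of -0.88 and -1.65. Red cell markers, which summed to 3535, 3328 and 263 TPM, moved the same way as these genes, as did the sums of the granulocyte and monocyte lists. Within those lists, Csf3r and the monocyte markers Csf1r, Ccr2, Itgam, Fcgr1, Tyrobp and Cd14 went the other way. The part of these cells in the differences was not tested.

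Rab27b went the other way. At 2.00 TPM in library 3 it lay above its 0.63 and 0.39 TPM in libraries 1 and 2, centred differences of 1.32 and 1.73 (log2). Without library 3 its fitted log2 level against 1 TPM was -0.98 instead of 0.01. Rab37 was also highest in library 3, by 0.71 and 0.77 after centring, short of 2-fold, and was past 2-fold against library 2 without centring. The NK cell markers (677, 573 and 1672 TPM) and the platelet markers (15.4, 11.2 and 98.3 TPM) were highest in library 3 as well, and their part was not tested. Rab8a, in contrast, differed by -0.09 and 0.12.

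**Figure D5:**
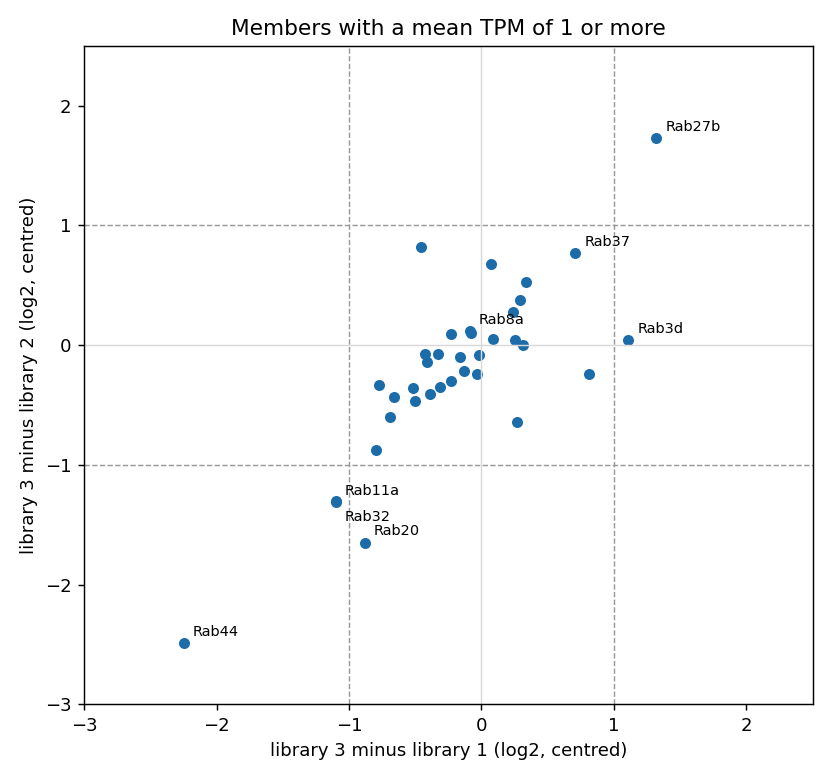
Centred log2(TPM + 0.1) difference of library 3 from library 1 (horizontal axis) and from library 2 (vertical axis) for the 36 members with a mean of 1 TPM or more, with dashed lines at 2-fold. Rab44, Rab11a and Rab32 lie past both lines at the lower left, Rab27b past both at the upper right, and most members lie between the lines.

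The genes that act on Rab proteins were counted from lists of 111 genes, of which 105 were tested: 72 stood above 1 TPM, 8 below, and 25 did not pass in either direction (edgeR), beside the 54% above and 6.02% below among protein-coding genes. Their median log2 level was 1.74, between those of the members and of all protein-coding genes given above. All 8 genes for GDP dissociation inhibitors, escort proteins and the geranylgeranyl transferase were tested, and 7 stood above 1 TPM. Gdi2, which extracts GDP-bound Rab proteins from membranes, was at 54.0, 58.1 and 48.2 TPM. Rabac1, a receptor for the prenylated proteins, was at 8.68, 8.63 and 15.4 TPM. Both subunits of the transferase that attaches the lipid, Rabggta and Rabggtb, stood above 1 TPM with means of 2.36 and 6.96 TPM.

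Of 33 genes listed as exchange factors, 23 stood above 1 TPM and 4 below. The highest were Dennd4a, an activator of Rab10, at 23.2, 25.7 and 29.4 TPM, Dennd5a at 17.0, 17.3 and 14.3 TPM, and Madd, an activator of Rab3 and Rab27 proteins, at 16.3, 6.19 and 19.6 TPM. Dennd5b, Dennd2c, Dennd6b and Rin1 stood below. The exchange factors of Rab7, Mon1a, Mon1b and Ccz1, all stood above 1 TPM, with means of 1.75, 2.22 and 8.54 TPM.

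Of 31 genes listed as GTPase-activating proteins, 19 stood above 1 TPM, beside 54% of protein-coding genes. The activity of each listed gene was not examined. The highest were Rabgap1l at 14.2, 17.3 and 23.6 TPM, Tbc1d10c at 8.76, 6.70 and 18.3 TPM and Tbc1d23 at 10.5, 10.4 and 8.91 TPM. Tbc1d2, Tbc1d24 and Tbc1d16 stood below. Tbc1d10c was highest in library 3, as were the NK cell markers (677, 573 and 1672 TPM) and the platelet markers (15.4, 11.2 and 98.3 TPM). These TPM were not centred, and the part of such cells was not tested.

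Of 36 effectors, 30 were tested, 20 stood above 1 TPM and Rab11fip5 stood below. Sytl3, a partner of Rab27 proteins, was at 9.70, 11.9 and 24.4 TPM, and Mical1, which acts on actin, at 13.1, 10.5 and 20.4 TPM. The Rab5 effector Rabep1 was at 7.28, 6.69 and 9.85 TPM. Unc13d, through which Rab27a primes granules for release, was at 3.05, 2.60 and 5.47 TPM. These 4 genes were highest in library 3. Their TPM were not centred, and the median protein-coding gene was itself higher there, by 0.21 and 0.37 (log2) against libraries 1 and 2. The NK cell markers (677, 573 and 1672 TPM) and the platelet markers (15.4, 11.2 and 98.3 TPM) were also highest there. So was the T cell sum, whereas the sums of the other marker lists were lowest there. The part of these cells was not tested. The melanosome and synapse effectors Myrip, Mlph, Exph5, Rph3a, Rims1 and also Sytl5 had too few counts to be tested and were at 0 TPM.

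The kinases and the phosphatase that add and remove phosphate on Rab switch regions all stood above 1 TPM. Lrrk2, whose substrates include Rab8a, Rab10 and Rab29, was at 9.38, 8.70 and 8.19 TPM, with a mean of 8.76 ± 0.597 TPM (SD, n = 3). Ppm1h, the phosphatase that reverses it, was at 9.80, 8.30 and 10.3 TPM. Lrrk1 was at 3.17, 3.77 and 9.94 TPM, with library 3 apart. The NK cell markers (677, 573 and 1672 TPM) and the platelet markers (15.4, 11.2 and 98.3 TPM) were also highest there, and their part was not tested. The ranges of Lrrk2 and Ppm1h overlapped and were narrow beside that of Lrrk1.

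Several members share exons or sequence with other gene models, and the sources used here do not say whether strand was used in the counting. Rab43 shares 75.4% of its exon bases with Gm45140 on the same strand, and their division between the genes is uncertain. On the opposite strand, Rab24 shares 62.4% of its exon bases with Prelid1 (mean 6.95 TPM), Rab2b 59.3% with Gm43766, Rab20 25.6% with E230013L22Rik and Rab6a 19.0% with Mrpl48 (mean 2.57 TPM). Without strand, reads of both genes of such a pair cannot be told apart. Near-identical copies were found for Rab11b (Rab11b-ps2, 99.8% identity, mean 0.173 TPM), Rab5b (Gm13991, 99.4%, 0.123 TPM) and Rab7 (Rab7-ps1, 98.4%, 0.387 TPM).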

How the data were processed

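Total RNA-seq of 3 libraries of 1 group was used. Per the accompanying notes, the authors quantified the reads on mm10 with GENCODE M21 and again with M4; the sources used here give neither the programs nor the strand setting. The deposited gene and transcript tables give an expected count (estimated reads, not always whole) and a TPM that the authors scaled over every row of a table. A further deposited transcript table was made from the reads on M21. The M21 gene tables gave the levels, and rows naming no gene, at most 0.000571% of the counts, stayed out of the tests. Transcript shares came from the table made from the reads, and levels of single transcripts from the M21 transcript table unless said otherwise.

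Expected counts were rounded and fitted with edgeR 4.0.16 (intercept only) with the log of the count at 1 TPM as offset, so that the F test, computed from the deviances and moderated dispersions, asks whether a gene differs from 1 TPM. A summed count of at least 10 was required, and p-values were adjusted by Benjamini-Hochberg at 0.05. The dispersion trend can run on the counts or on the level. Of 4 versions run, the one first run (trend on the level) called 33 members above and 0 below 1 TPM. The version reported (trend on the counts, the tool's standard use) called 33 and 1, and it was adopted after the calls of both had been seen. The procedure was also run on simulated counts with the same dispersion for every gene. The data were fitted with a dispersion trend, so that run does not show how the test behaves at low counts here. DESeq2 1.42.0 and limma 3.58.1 were alternatives, and near-identical genes were searched with BLAST+ 2.17.0 (at least 95% identity over 200 bases). Values of 0 were given the limit that 3 counts allow.

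The members and the lists of roles, pairs, regulators and markers were chosen with earlier results of these data known. Values in every library were given for the 12 highest members, members past 2-fold between libraries, members of the related pairs, the 2 highest of each role group and the 3 highest regulators of each class. Other names, among them Rab35, Rab37, Rab19, Rab21, Rab24, Rab20, Unc13d, Mon1a, Mon1b, Ccz1, Rabggta and Rabggtb, were added for their roles after their values were seen. A few items are not reported here.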

Additional observations from a re-analysis of the deposited data

Results flagged for a closer look

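Among the 10 members with no count in any library of the gene tables, 3 had more than 3 estimated counts in every library of the transcript table made from the reads, which was not used for the levels. Rab34 had 70.7, 135 and 53.6 estimated counts in libraries 1, 2 and 3. Most of them were assigned to its retained-intron transcripts Rab34-204 and Rab34-207. Rab3c had 20.3, 21 and 19.9 estimated counts, and Rab9b had 19.1, 10 and 37.8. Both tables were made on the same annotation, and the cause of the difference was not tested. Other members also differed between the tables. Rab25 had 7, 10 and 12 estimated counts in the table made from the reads, and Rab26 had 15, 6.02 and 12.1. Rab15 had 2, 9 and 0 there, Rab38 had 0, 4 and 0, Rab42 had 0, 18 and 0, and Rab40b had 0, 1 and 0. For all of these genes, a statement that no count was found in a library therefore holds for the gene tables. The group has 3 libraries, too few for a check of single outlying libraries.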

How the results depend on the processing

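With 3 libraries of 1 group, changes between libraries could not be tested, and members below about 1 TPM rest on few counts. No paired analysis was possible because the design holds 1 group. The count of members above 1 TPM (33) ranged from 28 to 41 over the alternatives other than 10 TPM, and that of regulators (72) from 54 to 93. Leaving out 1 library gave 32 to 32 members above and 0 to 1 below, and 68 to 69 regulators above and 2 to 8 below. Fewer samples entered those fits. Members below 1 TPM numbered 0 on the protein-coding TPM scale, 0 with the dispersion trend on the level (with or without the Poisson bound), 0 with DESeq2, 8 with limma on log2(TPM + 0.1) and 9 with limma on log2(TPM + 1). Regulators below numbered 0 on the protein-coding scale, 0 with DESeq2, and 16 and 20 with limma. Against 10 TPM, 9 members stood above and 29 below, and 6 and 78 regulators. Over all genes, 7638 stood above and 1123 below, 7640 and 610 with the trend on the level, 5633 and 215 with DESeq2, 7283 and 6304 or 7040 and 6751 with limma (pseudocount 0.1 or 1), 12092 and 1 on the protein-coding scale and 1684 and 11486 against 10 TPM. Without library 1 those below numbered 251, without library 2 381 and without library 3 1085. Calls above 1 TPM were lost by Rab20 and Rab22a without library 1, Rab20 without library 2 and Rab22a without library 3, and with DESeq2 by Rab4b, Rab18, Rab24, Rab20 and Rab22a, and with limma by Rab22a (adjusted p 0.0756 and 0.113 at pseudocounts 0.1 and 1) and Rab20 (0.0638 at 1). Rab3d gained the call above without library 1, with the M4 tables, without the filter and with TMM factors, and on the protein-coding scale so did Rab3d, Rab2b and Rab27b. The cause of these changes was not tested.

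Against 10 TPM, the log2 level turned negative by the choice of level itself for Rab6a -0.04, Rab27a -0.13, Rab5b -0.45, Rab31 -0.53, Rab29 -0.53, Rab44 -0.58, Rab11b -0.75, Rab9 -0.79, Rab21 -0.87, Rab32 -0.95, Rab35 -1.07, Rab37 -1.19, Rab19 -1.21, Rab43 -1.35, Rab33b -1.40, Rab12 -1.44, Rab4b -1.60, Rab28 -1.61, Rab18 -1.67, Rab24 -1.76, Rab20 -2.26, Rab22a -2.53, Rab3d -2.60, Rab2b -3.17 and Rab27b -3.31. On the protein-coding scale it turned positive for Rab39 2.86, Rab30 2.72, Rab40c 2.2, Rab6b 1.87, Rab3a 1.48, Rab36 1.42, Rab7b 1.24 and Rab23 1.12. Rab27b, at 1 TPM, turned to -0.09 with TMM factors, -0.10 with DESeq2, -0.28 and -0.08 with limma and, over the fits that left out 1 library, ranged from -0.98 to 0.40; Rab2b ranged from -0.16 to 0.50 over those fits.

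Between libraries, a pseudocount of 1 left 0 members past 2-fold higher in library 3 against library 1 or 2, and 0 in either direction between libraries 2 and 1. Without centring, 1 was lower in library 3 than in 1, 4 were higher and 2 lower than in 2, and 0 were higher in 2 than in 1. With CPM of the expected counts, 0 were lower in 2 than in 1. At 1.5-fold, 4 were higher and 8 lower for libraries 3 and 1, 4 and 7 for 3 and 2, and 4 and 2 for 2 and 1. The share of all protein-coding genes was not computed at these settings, so these counts stand without a background. Ratios of Rab8a to Rab8b and of Rab10 to Rab8a turned to -0.05 and 0.05 in coding transcripts, because a noncoding transcript is then left out. Of all recomputed values, 568 levels kept their direction and side, 93 ratios and 224 shares stayed within the spread between libraries, 39 levels changed sign, 19 lost a call and 30 gained one, and 15 ratios and 46 shares moved by more than the spread between libraries.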

Other observations

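Some members changed their transcripts between libraries more than their total. Rab29 was at 8.88, 5.82 and 5.99 TPM, and its coding transcript Rab29-201 was at 7.44, 2.34 and 1.76 TPM in the M21 transcript table. The second coding transcript, Rab29-202, was at 1.07, 1.40 and 1.24 TPM, and Rab29-203, listed as a target of nonsense-mediated decay, was at 0, 1.45 and 1.89 TPM. Library 1 was thus the sole library in which Rab29-201 held most of the gene.

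Rab23, which acts in Hedgehog signalling, was found only in retained-intron transcripts, with Rab23-209 the highest on average, at 0.03, 0.41 and 0.06 TPM in the M21 transcript table. In library 3 Rab23-208 was higher, at 0.11 TPM. Rab40c was assigned mainly to the noncoding Rab40c-205, at 0.40, 0.33 and 0.62 TPM there. In the table made from the reads the coding share of Rab40c was 42.5%, 0% and 46.7% of TPM, so for this gene the tables did not give the same picture.

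Of the 36 members with a mean of 1 TPM or more, 14 had their highest TPM in library 1, 5 in library 2 and 17 in library 3. Library 2 held the lowest TPM of 21. These TPM were not centred, and no such count was made over all genes. The median protein-coding gene itself stood higher in library 3, by 0.21 (log2) against library 1 and 0.37 against library 2. In library 2 it differed from library 1 by -0.16. After centring, the median member differed by -0.19, -0.12 and -0.04 for libraries 3 and 1, 3 and 2, and 2 and 1.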
